A study of Mus musculus with 3 samples.

Results

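Catalase, the superoxide dismutases, the glutathione peroxidases and the peroxiredoxins are the enzymes that take apart superoxide and peroxides in liver cells, and 10 of their genes (Cat, Sod1, Sod2, Gpx1, Gpx4, Prdx1, Prdx2, Prdx3, Prdx5 and Prdx6) were followed here among the 23361 genes of the files. They were chosen by gene symbol, and all 10 were found in each file with a valid FPKM estimate. The samples were livers of C57BL/6J mice aged 8 to 10 weeks, labelled male and fasted for 12 h, with 1 mRNA library each for the sham, WI and IR groups. The sham mice had a laparotomy and were kept for 90 min, the warm ischemia (WI) mice had the vessels of the left and median lobes (70% of the liver) clamped for 90 min, and the ischemia followed by reperfusion (IR) mice had the same clamping and then 120 min of blood flow. Surgery was done under chloral hydrate, and no sham library matches the IR library in time. The study had 6 mice in a group, and whether a library pooled several of them is not stated in the sources used here.

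Superoxide leaves the respiratory chain and leukocyte oxidases as a first product of oxygen reduction. Superoxide dismutases turn it into hydrogen peroxide, with Sod1 (copper and zinc) mainly in the cytosol and Sod2 (manganese) in the mitochondrial matrix. Catalase then breaks hydrogen peroxide down in peroxisomes without a cofactor to recycle, while glutathione peroxidases and peroxiredoxins reduce it with electrons that come from NADPH through glutathione or thioredoxin. Hepatocytes are rich in these enzymes, and the return of oxygen to an ischemic liver is a known source of superoxide and hydrogen peroxide.

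The values are FPKM, fragments scaled by transcript length and by the mapped fragments of the library, which can be compared between genes. Each comes with 95% bounds from the quantification model, which do not cover differences between mice. No counts are given, so the depth on a gene is unknown, and with 1 library in a group no difference has a replicate check or a test. Before the results, 3 features of the libraries have to be stated. Xist, transcribed from an inactive X chromosome, had an FPKM of 18.9 in sham, 20.2 in WI and 1.29 in IR, and the Y-linked genes Ddx3y, Eif2s3y, Kdm5d and Uty were at 0.00849 or less in the sham and WI samples and at 0.669 to 13.2 in IR. The sham and WI libraries therefore go against their male label, and in comparisons with the IR sample the sex of the mice cannot be told apart from reperfusion. Only the comparison of WI with sham is free of this difference. Summed FPKM was 475754 in sham, 487912 in WI and 712423 in IR, and the major urinary protein (Mup) genes held 2.33%, 2.11% and 12.6% of it. Levels below are as deposited, and where rescaling all libraries to a common FPKM sum (TPM) turns a direction, this is said. The 6 hepatocyte markers summed to an FPKM of 14518 in sham, 10627.5 in WI and 16404 in IR (3.05%, 2.18% and 2.30% of all FPKM), with Tat going from 1713 to 864 and 1027, whereas Alb was listed at 0 in all 3 because its locus held too much data for the estimate (status HIDATA). This status was given to 1 gene in sham, 1 in WI and 7 in IR. Summed FPKM, shares of it and TPM may therefore rest on unlike sets of genes in IR and in the other libraries.

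The enzymes were among the most abundant transcripts of the liver. In the sham sample Sod1 and Gpx1 led, Prdx1 and Cat followed, then Gpx4, Prdx5, Prdx6, Prdx2 and Prdx3, and Sod2 came last. By FPKM, Sod1 ranked 54 among the 10792 genes that reached an FPKM of 1 in any library (the genes tested below), and Sod2 ranked 1298. Summed over the 10 genes, FPKM was 4377 in sham (0.920% of all FPKM), 5443 in WI (1.12%) and 6530.2 in IR (0.917%). The order held from Gpx4 downwards in all 3 samples, while Gpx1 passed Sod1 in the WI and IR samples and Cat stood above Prdx1 only in WI. Every pair of neighbours in that order had overlapping bounds in each library. Of the 45 pairs of enzymes, 18 had separate bounds in sham, 18 in WI and 17 in IR.

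**Figure D1:**
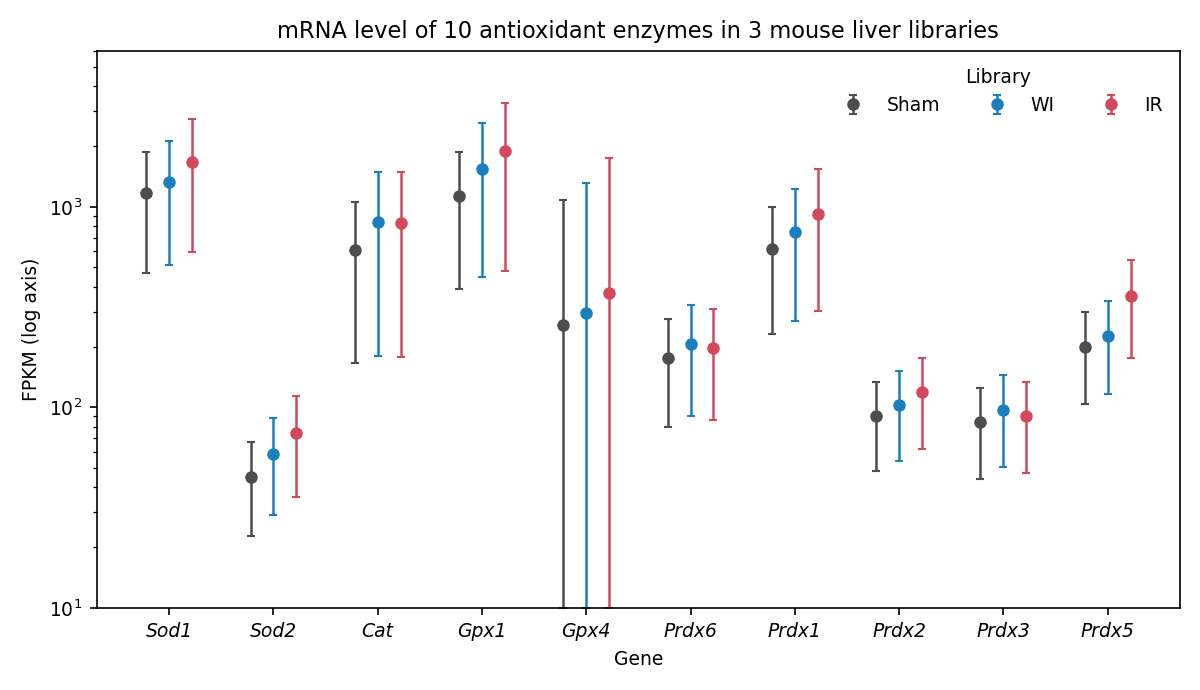
FPKM (log axis) of the 10 enzyme genes in the sham, WI and IR libraries, 1 point a library. Bars are the deposited 95% bounds, which reach 0 for Gpx4 and are cut there at the foot of the axis. The points of Sod1, Sod2, Gpx1, Gpx4, Prdx1, Prdx2 and Prdx5 stand in the order sham, WI, IR, those of Cat, Prdx3 and Prdx6 peak in WI, and the bounds of each gene overlap.

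Among the superoxide dismutases, Sod1 (chromosome 16 of mm10, 90220742 to 90226324) had an FPKM of 1169.6 in sham (95% bounds 466 to 1873), 1326 in WI (511 to 2141) and 1675 in IR (598 to 2752). Sod2 (chromosome 17, 13007839 to 13018119) had 44.8 (22.8 to 66.8), 58.5 (29.0 to 87.995) and 74.9 (35.9 to 114) in the same order. Both were lowest in sham and highest in IR as deposited, and highest in WI with TPM. On the log2(FPKM + 1) scale used for all differences here, Sod1 was 0.18 higher in WI than in sham and 0.52 higher in IR than in sham, and Sod2 was 0.38 and 0.73 higher. The FPKM of Sod1 was 26.1 times that of Sod2 in sham, 22.7 times in WI and 22.4 times in IR.

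Cat (chromosome 2, 103453904 to 103485153) had an FPKM of 610.1 in sham (167 to 1053), 839 in WI (180.2 to 1499) and 831 in IR (178 to 1485). The WI and IR samples were close to each other and above sham as deposited, while with TPM the IR sample was below sham (a log2 difference of -0.14). Its difference of 0.46 between WI and sham was the highest of the 10 genes, and the difference between IR and WI was -0.01.

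Glutathione peroxidases reduce peroxides, and Gpx1 and Gpx4 do so with glutathione and carry selenocysteine in the active site. Gpx1, the main cytosolic form (chromosome 9, 108339080 to 108340344), had an FPKM of 1129 in sham (389 to 1868), 1537 in WI (447 to 2626) and 1890.45 in IR (478 to 3303). Gpx4, which reduces lipid peroxides in membranes and so protects cells from ferroptosis, had 258, 296 and 370.4. Its lower bound was 0 in every library and its upper bounds were 1087, 1320.5 and 1756, so little can be said of its level. The files place Gpx4 in a locus of 672 kb on chromosome 10 that it shares with 46 other genes. Both had their lowest value in sham and their highest in IR as deposited (in WI with TPM), with differences from sham of 0.44 (WI) and 0.74 (IR) for Gpx1 and of 0.20 and 0.52 for Gpx4.

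Peroxiredoxins reduce hydrogen peroxide at a cysteine. Prdx1 and Prdx2 of the cytosol, Prdx3 of mitochondria and Prdx5 of several compartments are reduced by thioredoxin, and Prdx6 by glutathione. Prdx1 (chromosome 4, 116684965 to 116700000) had an FPKM of 614 in sham (233 to 994), 751 in WI (269.8 to 1233) and 919.9 in IR (303 to 1537). Prdx2 (chromosome 8, 84969648 to 84974313) had 90.5 (48.0 to 133), 103 (54.3 to 152) and 119 (62.3 to 176). These cytosolic forms had differences of 0.29 and 0.19 between WI and sham, and of 0.58 and 0.40 between IR and sham. For both, the order of the libraries was sham, WI, IR as deposited, and both were highest in WI with TPM.

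Prdx5 (chromosome 19, 6906819 to 6909645) had the widest range over the 3 libraries as deposited (0.84, but 0.26 with TPM, where Prdx3 spanned 0.65, Prdx6 0.62 and Cat 0.56), with an FPKM of 200.5 in sham (104 to 297), 227 in WI (116 to 338) and 361 in IR (176 to 546). As deposited the difference was 0.66 between IR and WI and 0.18 between WI and sham, while with TPM these were 0.12 and 0.14. The RefSeq gene overlaps Trmt112, which had an FPKM of 20.3, 25.2 and 31.3, and a share of reads between the genes cannot be told apart. Prdx3 (chromosome 19, 60864066 to 60874538) had 84.2 (44.0 to 124), 97.3 (50.4 to 144) and 90.6 (47.0 to 134). Prdx6 (chromosome 1, 161240112 to 161251166) had 177 (79.6 to 274), 208 (90.9 to 324) and 197 (86.9 to 308). These last 2 genes were highest in WI, also with TPM. Prdx6b, a close copy of Prdx6, was listed at 0 in sham. The FPKM of Prdx5 was 2.38 times that of its fellow mitochondrial form Prdx3 in sham and 3.98 times in IR.

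Sequence upstream of the genes was read for 3 motifs that mark oxidant, inflammatory and basal promoter control. RefSeq promoter windows (GRCm38.p6, the assembly of mm10; 250 bases before to 50 after the start) were on hand for 9 of the 10 genes. The motifs were the core of the antioxidant response element (TGACNNNGC, bound by NRF2), the NF-kB motif and TATAAA, each on both strands. The first was found for Prdx1 and Sod1, against 13.99% of the 27025 genes with a window, the NF-kB motif for Cat, Sod2, Gpx1 and Prdx1, against 9.55%, and TATAAA for Prdx1, Sod1 and Prdx3, against 15.7%. Per window, of which a gene can have several, the shares were 12.4%, 8.46% and 13.6% of 32851. These windows are shown because they are the ones that hold the first motif or, for Sod2 and Gpx1, the NF-kB motif in members at least 1.5-fold apart between libraries as deposited. Capitals mark the match, which lies on the opposite strand in all of them, and in Sod2 on both strands.
Prdx1, antioxidant response element core, chr4:116685456-116685485, plus strand: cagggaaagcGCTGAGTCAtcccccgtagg
Sod1, antioxidant response element core, chr16:90220696-90220725, plus strand: gccaaggtggGCGTGGTCAgactcaggcct
Sod2, NF-kB motif, chr17:13007746-13007775, plus strand: cggggcggacGGGGTTCCCCgaggcggggc
Gpx1, NF-kB motif, chr9:108339015-108339044, plus strand: agacagagctGGAAGATCCCcgcctaagca
The Prdx1 match begins 133 bases before the RefSeq start and also holds TGAGTCA, the letters of an AP-1 site. The Prdx5 window held none of the 3 motifs. A match in letters is no evidence that a factor binds there.

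After 90 min of ischemia all 10 genes had a higher FPKM than in sham, by 13.3% (Sod1) to 37.6% (Cat). Cat, Gpx1 and Sod2 differed most (0.46, 0.44 and 0.38), and Prdx5, Sod1 and Prdx2 least (0.18, 0.18 and 0.19). The median difference was 0.22, against 0.02 for all genes tested, and it was 0.18 when the libraries were rescaled to a common sum (TPM), where all 10 were still higher. None differed at least 2-fold, as 1.85% of the genes tested did, and none was at least 1.5-fold higher, as 3.14% of the genes tested and 4.82% of the abundant genes described below were. Bounds were separate for none of the 10 and for 0.676% of genes tested. A higher value in WI was common among genes as such, with 52.5% of those tested above sham. Among the 1058 genes that stood at an FPKM of 50 or more in every library, a group added after the data were seen because the enzymes are abundant, it was 71.2% with a median of 0.12. Sod2, at 44.8 in sham, is not in this group, though counts of the 10 set beside it here and below include Sod2. The 95% interval of each difference, propagated from the deposited bounds, included 0 for the 9 genes that have one, as for Cat from -1.05 to 1.97 and for Sod2 from -0.60 to 1.35.

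Between WI and IR, 7 of the 10 genes were higher in IR, against 52.4% of the genes tested and 70.4% of the abundant ones. The difference was 0.66 for Prdx5 (FPKM 58.8% higher, interval -0.33 to 1.66), 0.35 for Sod2, 0.34 for Sod1, 0.32 for Gpx4, 0.30 for Gpx1, 0.29 for Prdx1 and 0.21 for Prdx2. Cat, Prdx6 and Prdx3 lay at -0.01, -0.07 and -0.10. No member differed at least 2-fold (7.21% of genes tested) or had separate bounds (3.61%), and Prdx5 alone passed 1.5-fold (12.4% of genes tested and 15.3% of the abundant ones were that much higher). With TPM, Prdx5 did not pass 1.5-fold, and Prdx3 (-0.65) and Prdx6 (-0.62) passed it in the lower direction. This comparison depended on how the libraries were scaled. The summed FPKM of the IR sample was 1.497 times that of sham, and with a common sum (TPM) the median of all genes tested moved from 0.03 to -0.45, only Prdx5 remained higher in IR (0.12), and the median of the 10 went from 0.30 to -0.25. Relative to the median of all genes, the 10 stood 0.27 higher with the deposited values and 0.20 higher with TPM. Rescaling a library by 1 factor moves the log2 values of all its genes alike. These distances differ only because the pseudocount of 1 was kept on the TPM scale. The split of genes at least 2-fold apart went from 624 higher and 154 lower to 385 higher and 1185 lower.

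**Figure D2:**
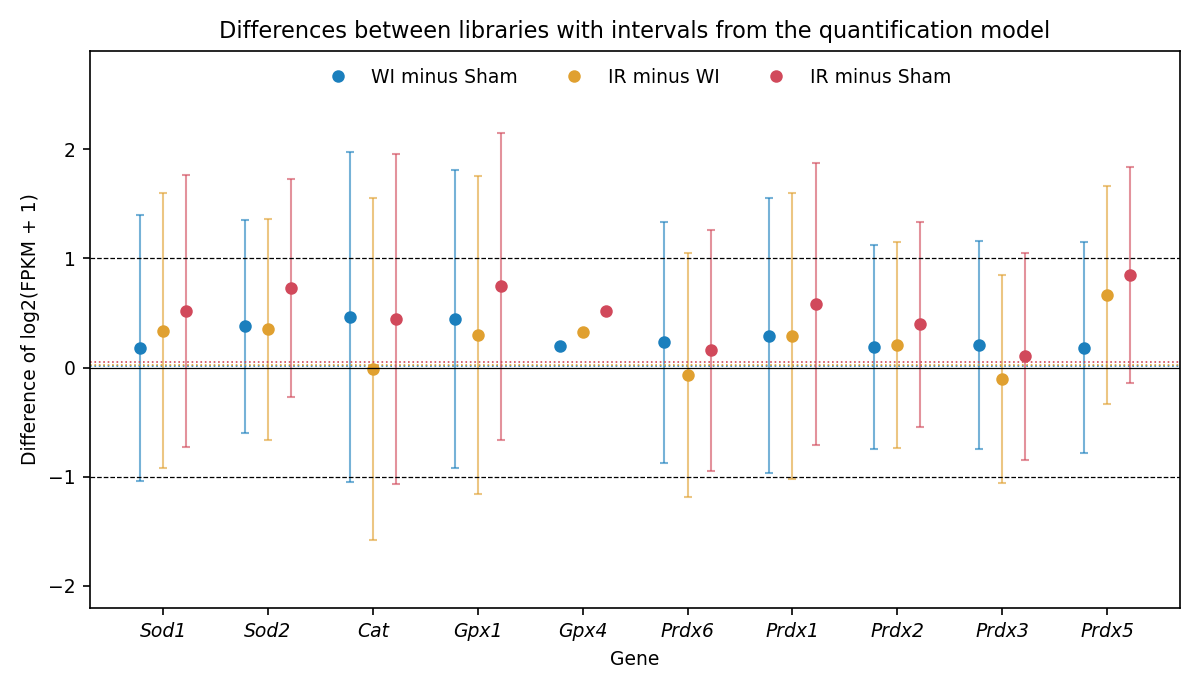
Difference of log2(FPKM + 1) of each enzyme gene for WI minus sham, IR minus WI and IR minus sham. Bars are 95% intervals propagated from the deposited bounds (Gpx4 has none), dotted lines are the medians of all genes tested and dashed lines mark 2-fold. All points lie inside the dashed lines, and every interval includes 0.

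Between sham and IR all 10 genes were higher in IR with the deposited values, against 54.4% of the genes tested and 77.9% of the abundant ones, while with TPM only Prdx5, Gpx1, Sod2 and Prdx1 were (0.26, 0.16, 0.16 and 0.0016). Prdx5 differed most (0.84, interval -0.15 to 1.84), then Gpx1 (0.74, -0.66 to 2.15) and Sod2 (0.73, -0.27 to 1.72), and Prdx6 (0.16) and Prdx3 (0.10) differed least. As deposited those leading 3 passed 1.5-fold (with TPM no member did), which 14.3% of the genes tested and 24.3% of the abundant genes did in that direction. Prdx1 stayed just under it, with a difference of 0.58 and an FPKM ratio of 1.499. None reached 2-fold (7.5% of genes tested did, in either direction), and separate bounds were found for none (3.82% of genes tested). The median of the 10 was 0.52, against 0.05 for all genes tested and 0.36 for the abundant genes. With TPM these 10 had a median of -0.06 and all genes tested one of -0.45. The distance to the median of all genes was 0.46 as deposited and 0.39 with TPM, a gap that again comes from the pseudocount. The order sham below WI below IR was found as deposited for 7 of the 10, all but Cat, Prdx3 and Prdx6 (with TPM only for Prdx5), and for 25.6% of the genes tested. This order was not counted among the abundant genes, which were higher more often than all genes tested in each comparison. Comparisons of WI with sham, IR with WI and IR with sham share libraries, and their values for a gene are not independent.

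**Figure D3:**
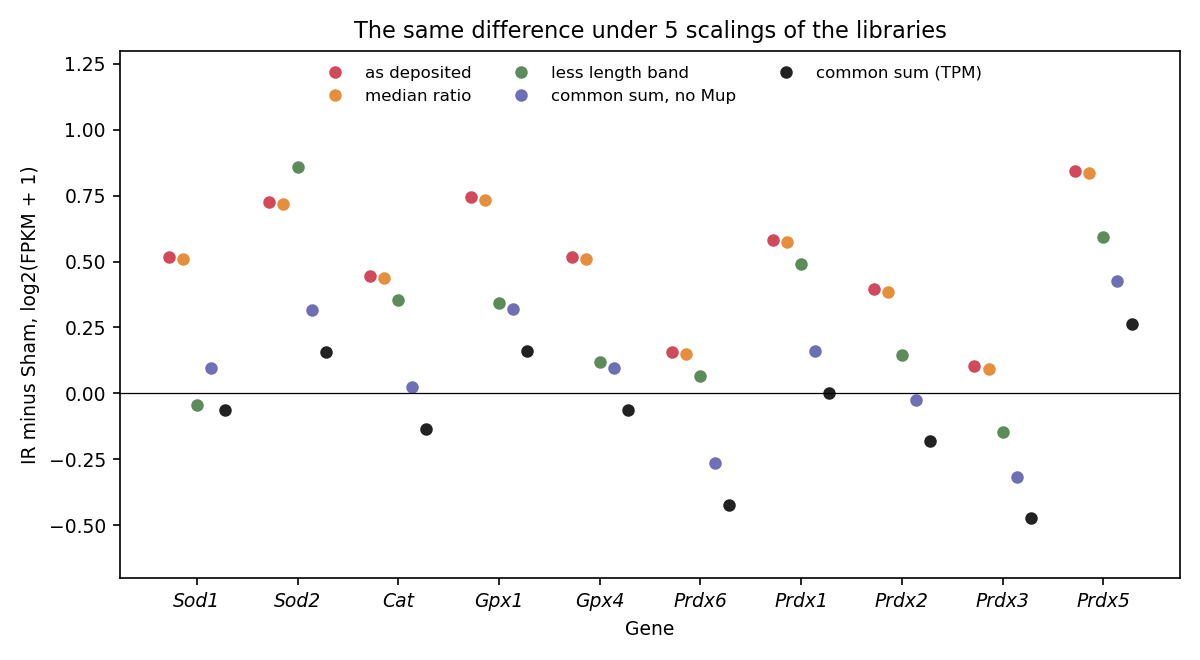
IR minus sham difference of log2(FPKM + 1) for each enzyme gene under 5 scalings, which are the deposited FPKM, the median ratio, the difference less the median of genes of like transcript length, a common sum without Mup genes, and a common sum (TPM). Prdx5, Sod2, Gpx1 and Prdx1 lie at or above 0 under all 5, and Prdx3 is above 0 under the first 2 only. Those first 2 are nearly the same, because the median ratio factors are close to 1.

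Differences from the IR sample also moved with transcript length. Over the 10093 genes tested with a length in the older NCBIM37 annotation, the median IR minus sham difference was 0.56 for genes whose longest coding transcript is under 800 bases, 0.40 and 0.25 in the next 2 bands, which end at 2000 bases, 0.09 from 2000 to 3000 and -0.13 above that. Sod1, with 646 bases, had a difference of 0.52, which lay 0.04 below the median of its band. Sod2 has 3824 bases and stood 0.86 above its band, Prdx5 (501 to 1262 bases) 0.59 above, Prdx1 (611 to 2294 bases, depending on the transcript) 0.49 above, Cat 0.35 and Gpx1 0.34 above. Gpx4, Prdx2 and Prdx6 stood 0.12, 0.14 and 0.07 above, and Prdx3 lay 0.15 below. Cat (779 to 2613 bases), Prdx2 (825 to 1612) and Prdx6 (959 to 2387) also have shorter transcripts. Set by the shortest one, their differences of 0.45, 0.395 and 0.16 lay below band medians of 0.56, 0.400 and 0.400. With the longest transcript, the median over the 10 was 0.24 above the bands between IR and sham and 0.04 between IR and WI. Between WI and sham the bands ran from 0.13 to -0.03, and all 10 genes stayed above theirs, with a median of 0.17. The part of transcript length in the results was not tested.

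**Figure D4:**
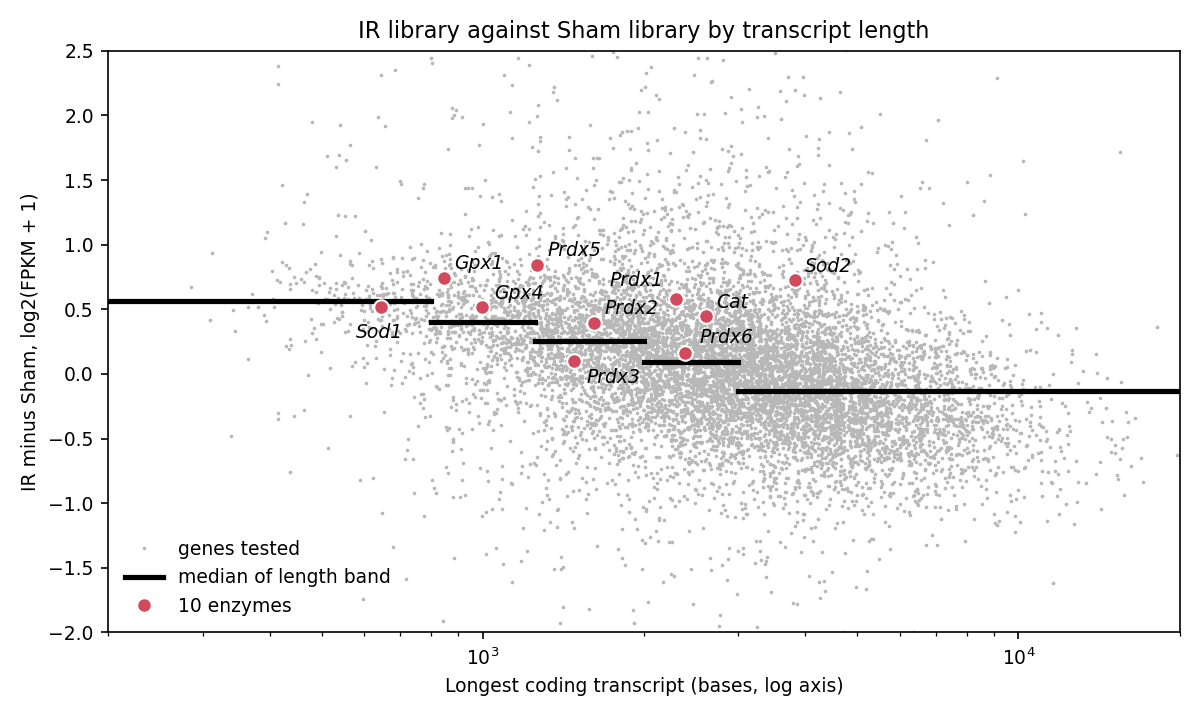
IR minus sham difference of log2(FPKM + 1) against the longest coding transcript (log axis) for the genes tested with a known length, of which 106 lie outside the axes. Black bars are medians of 5 length bands, which fall from 0.56 to -0.13, and red points are the 10 enzyme genes, with Sod2 farthest above its band.

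Markers of other cells differed between the libraries as well, and in bulk tissue fewer cells of a type and less RNA per cell cannot be told apart. Red cells are rich in catalase, Gpx1 and Prdx2. The summed FPKM of 8 erythroid markers was 751 in sham, 518 in WI and 1976 in IR (0.158%, 0.106% and 0.277% of all FPKM). As deposited, all 5 that passed the low-value filter were at least 2-fold higher in IR than in sham, against 5.35% of genes tested, Alas2 among them (6.97, 6.74 and 31.4). Slc4a1 stayed at or under 0.123 in every library, and Epb4.2 was listed at 0. The 8 neutrophil markers summed to 25.8, 19.6 and 462, with Mpo at 0.0598 or less. Kupffer cell and macrophage markers went the other way in sum, from 497 to 254 and 165, and 6 of their 8 genes were at least 2-fold lower in IR than in sham (2.15% of genes tested). The exceptions were Marco (20.9, 12.6 and 25.3) and Cd68 (18.5, 12.3 and 18.5). The ratio of IR to sham was 1.21 for Marco, below the 1.497 of summed FPKM, so a common sum would place Marco lower in IR. Sinusoidal endothelial markers summed to 130.5, 92.9 and 114, but to 119, 90.2 and 80.2 without Lyve1, left out after its values were seen, which went from 2.73 in WI to 33.4 in IR. As shares of all FPKM the 7 markers took 0.0274%, 0.0190% and 0.0159%. Stellate cell markers summed to 242, 166 and 168 (0.0509%, 0.0341% and 0.0235% of all FPKM), and cholangiocyte markers to 54.2, 62.0 and 93.6. The part of these cells in the levels of the 10 enzymes was not tested.

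The same families hold 8 further genes, of which 6 passed the low-value filter. None of them was 2-fold apart in any comparison, and their median difference was -0.14 between WI and sham and 0.06 between IR and sham (-0.46 with TPM). Sod3, the extracellular superoxide dismutase, had an FPKM of 18.6 in sham, 14.03 in WI and 13.9 in IR. Gpx3, the plasma glutathione peroxidase, had 4.92, 2.84 and 5.93, and its difference between IR and sham was 0.23 as deposited and -0.28 with TPM. Prdx4 of the endoplasmic reticulum, named after its values were seen as the one of the 8 at a level like Prdx2, had 91.9, 85.8 and 98.3, and with TPM it was lower in IR than in sham (-0.48) and in WI (-0.35).

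In the thioredoxin system, which keeps most peroxiredoxins reduced, Srxn1 and Txnrd1 were higher and Txnip lower in IR. All 10 genes of this list were tested, and between IR and sham 2 were at least 2-fold higher and 1 at least 2-fold lower (in all genes tested 5.35% and 2.15%), with a median of 0.04 (-0.49 with TPM, where 1 was higher and 2 lower). Srxn1, which repairs overoxidized peroxiredoxins, had an FPKM of 10.6 in sham (5.65 to 15.5), 13.0 in WI (6.97 to 19.0) and 79.5 in IR (38.5 to 121), with bounds in IR apart from both others. Txnrd1, the selenoprotein that reduces cytosolic thioredoxin, had 26.9, 32.8 and 67.7, with overlapping bounds. Txnip, which binds and inhibits thioredoxin, went from 262 to 173 and 125, a difference of -1.06 between IR and sham. With TPM the differences between IR and sham were 2.28 for Srxn1, 0.74 for Txnrd1 and -1.64 for Txnip.

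Glutathione synthesis and recycling had 11 of its 12 genes tested, with 2 at least 2-fold higher in IR than in sham, none lower (5.35% and 2.15% of all genes tested) and a median of 0.48 (-0.10 with TPM, with 2 still higher). Gclc, the catalytic subunit of the enzyme that limits glutathione synthesis, had an FPKM of 35.7 in sham, 46.6 in WI and 108 in IR. Gstp1, a glutathione transferase that hands glutathione to Prdx6, had 273, 320.4 and 1753, with bounds in IR (598 to 2908) apart from sham (138 to 409). Its near-identical copy Gstp2 could share its reads, so its level is uncertain. For the supply of NADPH, the electron source of both systems, 8 of 9 genes were higher in WI than in sham (median 0.29). Among all genes tested 52.5% were higher, and among the abundant ones 71.2%. None of these 9 was 2-fold apart in any comparison as deposited, as 1.85% to 7.5% of genes tested were. Between WI and IR the median was -0.20 (-0.67 with TPM), with Nnt, the mitochondrial transhydrogenase, going from an FPKM of 12.7 to 19.4 and Idh1, cytosolic isocitrate dehydrogenase, from 219 to 148.

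The enzymes that make superoxide or hydrogen peroxide had a median of -0.05 between WI and sham and 0.03 between IR and sham (-0.54 with TPM) over 16 of 17 genes tested. Cybb, the membrane subunit of the phagocyte NADPH oxidase, went from an FPKM of 12.7 in sham (6.81 to 18.6) to 6.00 in WI and 4.26 in IR (2.22 to 6.30), a difference of -1.38 with separate bounds, beside the lower Kupffer cell markers, whose part in it was not tested. Smox, spermine oxidase, was listed at 1.56, 1.12 and 5.81, with lower bounds of 0. For the selenoproteins and their synthesis, to which Gpx1 and Gpx4 belong by their selenocysteine, 17 of 18 genes were tested, with a median of 0.24 between WI and sham and 0.18 between IR and sham (-0.40 with TPM). Sepsecs, the last enzyme of selenocysteine synthesis on its tRNA, had 13.5, 14.9 and 6.88, and Txnrd1 was the only one of these at least 2-fold higher in IR than in sham, which it was not with TPM.

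Genes that supply metals to the superoxide dismutases had medians of 0.17 between WI and sham and 0.41 between IR and sham over 8 genes, with 2 at least 2-fold higher in IR than in sham, as 5.35% of all genes tested were (with TPM the median was -0.17 and none was). Slc39a14, an importer of manganese, zinc and iron, had an FPKM of 41.9 in sham, 35.2 in WI and 113 in IR. Slc30a10, a manganese exporter, had 1.01, 1.78 and 3.503. The 15 genes of peroxisome import and assembly, which catalase needs to reach its organelle, had medians of 0.05 and 0.01 (-0.53 for IR against sham with TPM), and 1 was lower by at least 2-fold. That was Pex11a, a peroxisome proliferation factor, which went from an FPKM of 69.6 in sham to 26.0 in WI and 23.1 in IR.

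Targets of NRF2 and of NF-kB, the factors whose motifs were read above, went past 2-fold where the 10 enzymes did not. Of 10 NRF2 targets tested, 6 were at least 2-fold higher in IR than in sham and none lower (5.35% and 2.15% of all genes tested), with a median of 1.43 (5 and 0.87 with TPM). Srxn1, Txnrd1 and Gclc, already counted in the lists above, are among these 6, so the lists are not separate. Hmox1, heme oxygenase, had an FPKM of 22.6 in sham, 18.1 in WI and 279.8 in IR, and Osgin1 had 30.9, 69.8 and 148. Gsta1, a glutathione transferase, was already higher in WI, at 1.25, 12.6 and 8.36. Of 9 NF-kB targets tested, 6 were at least 2-fold higher in IR than in sham (again against 5.35%), with a median of 1.39 (5 and 1.13 with TPM), led by the chemokines Cxcl1 (8.13, 21.1 and 84.3) and Ccl2 (1.08, 2.55 and 16.3). Icam1 had 5.58, 6.91 and 23.4, and Tnfaip3 1.45, 1.15 and 6.51. Beside these, the members with the antioxidant response element core, Prdx1 and Sod1, differed by 0.58 and 0.52 (0.0016 and -0.06 with TPM). Those with the NF-kB motif, Cat, Sod2, Gpx1 and Prdx1, differed by 0.45, 0.73, 0.74 and 0.58 (-0.14, 0.16, 0.16 and 0.0016 with TPM). Among NRF2 targets, the Srxn1 window and 1 of 3 Txnrd1 windows held the antioxidant response element core. The Osgin1 window did not, and no window was on hand for Hmox1 or Gclc. Whether the motifs play a part was not tested.

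**Figure D5:**
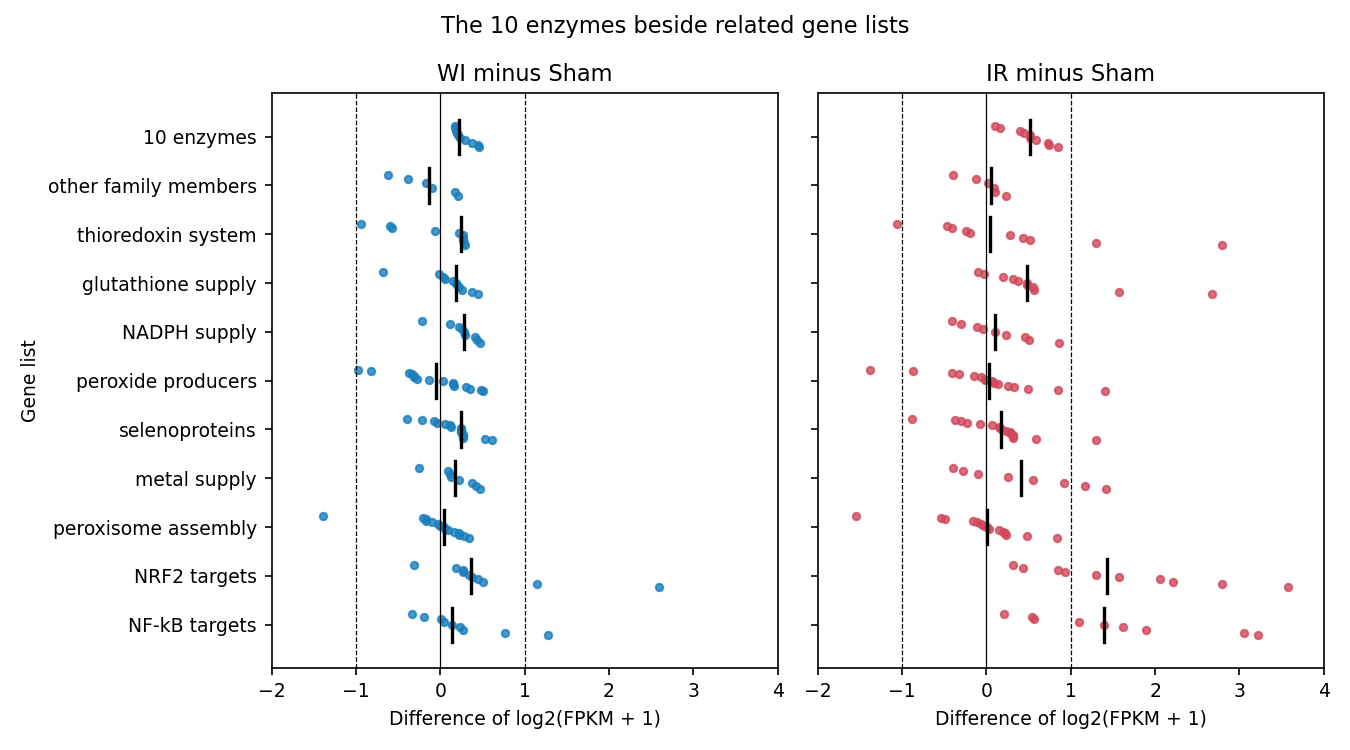
Differences of log2(FPKM + 1) for WI minus sham (left) and IR minus sham (right), 1 point a gene tested, with the median of each list as a black bar and dashed lines at 2-fold. The 10 enzymes lie in a narrow range inside the dashed lines (medians 0.22 and 0.52), while NRF2 and NF-kB targets reach past 2-fold in IR.

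Prdx5, the gene with the widest range as deposited though not with TPM, was set beside the 3505 other genes that kept an FPKM of 10 or more throughout. By the root mean square distance of the WI minus sham and IR minus sham differences, over only 3 libraries, the nearest were Med21 (0.00234), Ftl1 (0.00884), Lrrc59 (0.0134), Atp5e (0.0163) and Cct3 (0.0207). Ftl1, the ferritin light chain, had an FPKM of 2345 in sham, 2680.2 in WI and 4211 in IR. Within a distance of 0.1 there were 74 genes.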

How the data were processed

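Liver mRNA was sequenced in 3 libraries, 1 each for sham, WI and IR. The authors aligned the reads to mm10 with TopHat2 2.0.9 and deposited FPKM values with 95% bounds from Cufflinks 2.0.2, and further filters are not given in the sources used here. The bounds were read as the FPKM plus and minus 2 SD of the quantification model. Genes that reached an FPKM of 1 in any library were tested (10792), in the sense that a difference of log2(FPKM + 1) was counted at 2-fold or 1.5-fold, with a pseudocount of 1. A test needs replicates and none was run, the depth on a gene is unknown, and n is 1 library in each group. The paper lists the read pairs of each library, with a smaller share uniquely aligned in IR than in sham or WI. The part of that in the differences from IR was not tested. Intervals were propagated from the bounds by the delta method. Alternatives were other pseudocounts and filters, a common sum (TPM), the median ratio and a 1.5-fold threshold. A common sum without Mup genes, the length bands and the group of abundant genes were added after seeing the data. The enzymes and lists were chosen with earlier results of these data known. All 10 enzymes were named, and from every other list at most 4 genes at least 2-fold apart, or else the 2 with the largest difference. Transcript lengths came from GENCODE on NCBIM37 by symbol (93.5% of genes tested). The steps were tested on simulated data. Calculations ran in Python 3.11.15 on pandas 2.3.3 with numpy 2.4.6, and the plots in matplotlib 3.10.9. The values of 1 erythroid marker are not reported here.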

Additional observations from a re-analysis of the deposited data

How the results depend on the processing

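No paired analysis was possible because each group has 1 library, and for the same reason no replicate could be left out. All 30 differences of the 10 enzymes kept their direction with pseudocounts of 0.1 and 0.01 and with the median ratio. These settings are no check of direction, because a pseudocount cannot turn one. The median ratio factors were close to 1 (0.996 in sham, 0.999 in WI and 1.003 in IR). Of the 30 differences, 18 kept their direction with a common sum (TPM), 21 with a common sum without Mup genes and 27 less the median of genes of like length. With TPM the median over the enzymes was -0.25 for IR minus WI and -0.063 for IR minus sham, and without Mup genes it was -0.087 for IR minus WI. In each of these the rescaling itself lowers the IR library, whose summed FPKM is the highest. At 1.5-fold in place of 2-fold, 1 enzyme passed for IR minus WI and 3 for IR minus sham, where none had. Counts of genes past the threshold in at least 1 comparison also moved. At 1.5-fold they were 1 in place of 0 for the other family members, 1 in place of 0 for NADPH supply, 4 in place of 2 for the peroxide producing enzymes, 4 in place of 2 for the selenoproteins, 5 in place of 2 for metal supply and 3 in place of 1 for peroxisome assembly. With a pseudocount of 0.1 or of 0.01 they were 1 for the other family members and 4 for the producing enzymes, with TPM 2 for NADPH supply, 4 for the producing enzymes and 3 for peroxisome assembly, and with a minimum FPKM of 5 it was 1 for metal supply. The bounds limit what can be said most for Gpx4, whose lower bound is 0.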

Other observations

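By role, the summed FPKM of the 5 peroxiredoxins was 1166 in sham, 1387 in WI and 1688 in IR, that of both glutathione peroxidases 1387, 1833 and 2261, and that of both superoxide dismutases 1214, 1384 and 1749.9. As shares of all FPKM in a library, all 3 sums were lower in IR than in WI: 0.245%, 0.284% and 0.237% for the peroxiredoxins, 0.292%, 0.376% and 0.317% for the glutathione peroxidases and 0.255%, 0.284% and 0.246% for the superoxide dismutases. The FPKM of Gpx1 was 1.85 times that of Cat in sham, 1.83 times in WI and 2.27 times in IR. Such a ratio within a library does not depend on how the library is scaled, but it can still move with transcript length. The median IR minus sham difference was 0.40 in the length band of Gpx1 and 0.09 in that of Cat. The bounds of Gpx1 and Cat overlapped in each library, and the part of length in their ratio was not tested.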
